A study of Mus musculus with 6 samples.

Results

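The longest protein-coding genes expressed in cultured mouse ovarian granulosa cells were described here, untreated and after exposure to cyclophosphamide. A gene was a member when the deposited table annotated it as protein-coding, when its first and last base lay 500 kb or more apart, and when its mean level over the 6 libraries was at least 0.1 FPKM (read fragments scaled by exon length and library size). Members were therefore selected on a measured level as well as on span. A set of gene families and Slc7a11, Rora and Rev3l were left out by name. The rule took 95 of the 22046 protein-coding genes in a table of 54532 genes, on 18 chromosomes. Of 231 protein-coding genes with such a span, 123 lay below the level and 13 at or above it were left out by name.

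Granulosa cells are the somatic cells that surround the oocyte, make oestradiol and inhibin, and support follicle growth. Cyclophosphamide is an alkylating chemotherapy drug that harms ovarian follicles. The untreated group held 3 libraries and the cyclophosphamide group 3. All cells were labelled wild type with no strain or age, and were grown in DMEM/F12 with fetal bovine serum. The drug was added after adherent culture and RNA was taken 24 h later, as the protocol and the design text have it, whereas the treatment label of those libraries speaks of intraperitoneal injection. Nothing in the labels gave the replicates as separate cultures or animals, so p-values measure the spread between these libraries, which may be technical.

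A gene of this size is mostly intron. RNA polymerase II moves along DNA at a few kilobases per minute, so copying one such gene takes hours, and lesions, topological strain or early polyadenylation along the way can stop a transcript before its end. Many of the longest mammalian genes encode adhesion molecules, ion channels and scaffold proteins of neurons, and several lie at common fragile sites, regions that break when replication is slowed. These are general facts, not results of these libraries.

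Depth was 16458385 to 17607586 recovered reads per library, and 14885 genes with at least 10 reads in 3 libraries were tested. The granulosa markers Inha, Inhba, Gata4, Foxl2 and Nr5a2 were expressed in both groups. Of 11 tested granulosa markers 9 fell (81.8%), Kitl rose (9.09%) and Wt1 was not called. Among all genes tested, 35.8% fell and 33.1% rose. Of the markers that fell, Bmpr1b went from a mean of 10.2 to 0.677 FPKM and Fshr from 2.54 to 1.11. Cyp19a1, the aromatase gene, and Amh were at or below 0.4 FPKM in every library. Of the markers of other cells, 7 of the 8 for macrophages (Fcer1g, Tyrobp, C1qa, C1qb, C1qc, Adgre1 and Ptprc) were at or below 0.42 FPKM in every library. Csf1r, the other one, rose, and the macrophage list summed to between 2.04 and 2.41 FPKM untreated and between 5.16 and 5.67 treated. The oocyte list (Gdf9 and Ooep rose, 2 of 6 tested) summed to between 0.67 and 0.908 FPKM untreated and between 2.98 and 3.78 treated. The endothelium list (Tek and Cdh5 not called, 2 of 5 tested) stayed at or below 0.752 FPKM in sum. In the theca and stroma list Star rose, Col1a1 and Col3a1 fell, Pdgfra was not called and Cyp17a1 was near 0. That list summed to between 65.9 and 71.4 FPKM untreated and between 593 and 974 treated. Star gave most of the sum, at 40.6, 41.1 and 41.7 FPKM untreated and 584, 966 and 755 treated. The part of these cells in the results below was not tested. In bulk RNA, fewer cells of a type and less RNA per cell cannot be told apart.

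Nearly all of these long genes had less RNA after cyclophosphamide. Of 94 tested members, 83 fell (88.3%) and 5 rose (5.32%), against 35.8% lower and 33.1% higher among all genes tested (limma on log2(FPKM + 0.1), adjusted p under 0.05 by Benjamini-Hochberg over all genes). Among the members, 6 were not called, and Schip1 was too low to be tested. The median log2 fold change of tested members was -1.67, against -0.02 for all genes tested and -0.06 for all protein-coding genes tested. In 69 members (73.4%) the fitted fall was at least 2-fold and in 33 (35.1%) it was at least 4-fold. Among all genes tested, 16.6% and 4.23% fell by as much.

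The 3 untreated libraries all lay above the 3 cyclophosphamide libraries in 84 tested members and below them in 6, and the groups overlapped in 4. Over all genes tested, groups that did not overlap were 37.8% lower and 35.3% higher. Members took between 0.431% and 0.448% of all reads in untreated libraries and between 0.146% and 0.15% in cyclophosphamide libraries. The median member stood at 1.58 to 1.63 FPKM in untreated libraries and at 0.302 to 0.386 in cyclophosphamide libraries. Each cyclophosphamide library had the same direction, with a median log2 difference from the untreated mean of -1.49, -1.59 and -1.70.

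The level in the rule and the read minimum were met by some members through a single group. For 76 members every library held 10 reads, and of these 66 fell, 4 rose and 6 were not called, with a median of -1.65. Among all 12910 genes with 10 reads in every library, 35.5% were lower and 34.2% higher. Another 17 members reached 10 reads in all untreated libraries but not in all cyclophosphamide libraries, and Nav3 did the reverse. Meeting the read minimum through 1 group favours that direction for those 18, so their direction is a description. By the level limit, 76 members reached 0.1 FPKM in both group means, and of these 67 fell and 3 rose. Another 17 reached it in the untreated mean alone, and all 16 of them that were tested fell. Nav3 and Dlgap1 reached it in the cyclophosphamide mean alone, and both rose. The direction of the members that met the level through 1 group is likewise a description.

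Among the members with the highest levels were Aff2, Ptprg and Exoc4, given here, and Ctnna2 and Zbtb20, given below. Aff2, a nuclear protein of the AF4 family tied to transcription elongation and mutated in fragile XE syndrome, had 25.7, 23.1 and 24.9 FPKM untreated and 8.10, 5.57 and 6.07 after the drug. Its log2 fold change was -1.90 ± 0.13 (SE, n = 3 per group, adjusted p = 9.4e-06, limma). Ptprg, a receptor tyrosine phosphatase, went from 19.3, 19.2 and 20.9 FPKM to 7.76, 10.3 and 8.10, a log2 fold change of -1.18 ± 0.11. For both genes the lowest untreated library was above the highest treated one. Exoc4, an exocyst subunit that tethers secretory vesicles, stood at 11.7, 11.6 and 12.6 FPKM untreated and at 6.35, 5.24 and 5.57 after treatment (log2 fold change -1.06 ± 0.09).

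**Figure D1:**
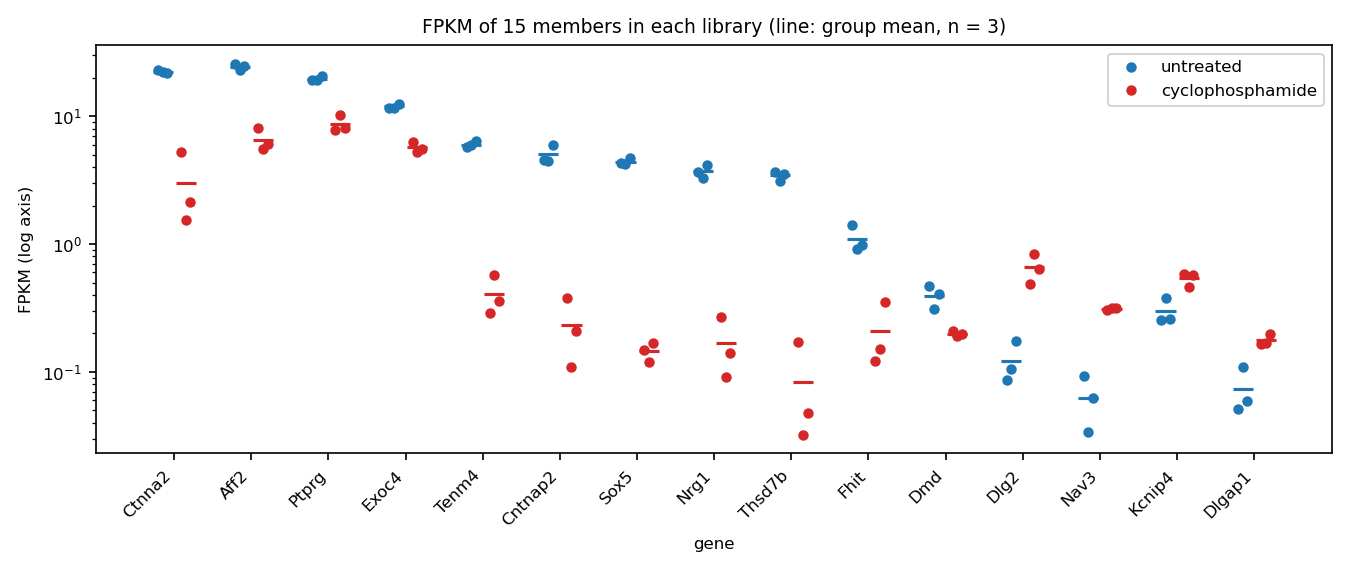
FPKM of 15 members in each library on a log axis, untreated in blue and cyclophosphamide in red, with a line at each group mean (n = 3). The groups lie apart for every gene shown, and the 4 genes on the right (Dlg2, Nav3, Kcnip4, Dlgap1) are higher after cyclophosphamide.

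Adhesion and polarity genes made up 19 members, of which 16 fell, 2 rose and 1 was not called, with a median log2 fold change of -1.33. Cntnap2, a neurexin-related adhesion protein of axons, spans 2245 kb and fell from 4.58, 4.51 and 6.02 FPKM to 0.379, 0.109 and 0.209. The ratio of means was 21.7-fold lower, and the log2 fold change was -4.02 ± 0.29 (adjusted p = 1.2e-05, limma). Tenm4, a teneurin that bridges neighbouring cells, fell from 5.71, 5.95 and 6.39 to 0.289, 0.571 and 0.361 FPKM (log2 fold change -3.63 ± 0.21). Neither gene had a treated library near an untreated one.

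Ctnna2, an alpha-catenin that links cadherins to actin, was the most abundant adhesion member, with 23.2, 22.1 and 21.8 FPKM untreated. Its treated libraries were spread, at 5.27, 1.54 and 2.14 FPKM, and its log2 fold change was -3.05 ± 0.37. Cyclophosphamide replicate 1 had the highest treated value there. That replicate was the highest of the 3 treated libraries in 43 of the 83 members that fell (51.8%), and in 44.4% of all genes that fell.

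Members of 1 family fell by different amounts. Magi1, a junctional scaffold, had a log2 fold change of -3.07 ± 0.15, and its paralogue Magi2 one of -0.55 ± 0.17. The call of Magi2 was lost without untreated replicate 1 (-0.44) or 3 (-0.56) or cyclophosphamide replicate 1 (-0.51). The polarity gene Pard3b fell by 2.50 on the log2 scale and Pard3 by 0.59. Tenm3 fell by 1.48 where Tenm4 fell by 3.63, and Ctnna3 fell by 0.95 where Ctnna2 fell by 3.05. The differences between paralogues were not tested.

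The cytoskeleton, scaffold and vesicle traffic group was the largest, with 20 tested members, of which 19 fell and Nav3 rose. The median was -1.78. Etl4 went from 5.60, 5.16 and 5.29 FPKM to 0.310, 0.302 and 0.324, with the smallest standard error among the 10 largest falls (log2 fold change -3.73 ± 0.13, adjusted p = 5.3e-07, limma). Dock1, a guanine nucleotide exchange factor that activates Rac in engulfment and migration, went from 9.64, 9.94 and 9.70 to 2.19, 2.27 and 2.11 FPKM. Its partner Elmo1 fell by 1.70 on the log2 scale. The spectrin anchors Ank2 and Ank3 fell by 2.05 and 2.00, and the LIM protein Lpp of focal adhesions fell from 13.1, 12.1 and 13.2 to 3.71, 2.46 and 3.11 FPKM.

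Dmd encodes dystrophin and spans 2257 kb on the X chromosome. It was low, at 0.468, 0.313 and 0.403 FPKM untreated and 0.209, 0.192 and 0.197 treated, with a log2 fold change of -0.71 ± 0.19 (adjusted p = 0.0098, limma). Syne1, which joins the nucleus to the cytoskeleton, and Erc2, a presynaptic scaffold, also fell by less than 2-fold, at -0.69 and -0.55.

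Receptors and signalling enzymes numbered 11, of which 10 fell and Rasgef1b rose, with a median of -1.33. Nrg1, the ligand neuregulin 1 that activates ErbB receptors and is induced in granulosa cells at ovulation, fell from 3.69, 3.30 and 4.15 FPKM to 0.270, 0.0916 and 0.140 (log2 fold change -3.88 ± 0.25). Its table span is 1069 kb and its principal transcript spans 101 kb. The 4 receptor tyrosine phosphatases among them all fell, namely Ptprk (-2.01), Ptprd (-1.78), Ptprm (-1.23) and Ptprg (-1.18). Cdk14, a cyclin-dependent kinase of Wnt signalling, fell by 2.97 on the log2 scale, and the kinase Mast4 by 0.94.

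Fgfr2, a receptor for fibroblast growth factors, went from 7.17, 7.24 and 7.31 FPKM to 2.56, 2.26 and 2.08 (log2 fold change -1.62 ± 0.10). It has the longest span in the table, 2961 kb, but that span comes from a single long transcript model. Its principal coding transcript spans 102 kb and its RefSeq gene 104 kb.

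Channels and transport held 14 members, of which 12 fell, Kcnip4 rose and Trpm3 was not called (median -1.46). Kcnd2, a voltage-gated potassium channel, fell from 1.83, 2.28 and 2.27 FPKM to 0.330, 0.195 and 0.135, a log2 fold change of -2.84 ± 0.24. Kcnip4, an accessory subunit of the same channel family, was higher, at 0.253, 0.379 and 0.261 FPKM untreated and 0.586, 0.461 and 0.575 treated (log2 fold change 0.70 ± 0.20, adjusted p = 0.013, limma). Dpp6, another accessory subunit of that family, fell by 1.86. The large-conductance potassium channel Kcnma1 and the calcium channel Cacna1c fell by 2.18 and 1.47. Ryr2, the calcium release channel, was at 0.266, 0.261 and 0.249 FPKM and fell to 0.0991, 0.0349 and 0.0503.

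Among 12 members that act in the nucleus or on RNA, 10 fell and none rose, and Foxp2 and Auts2 were not called (median -1.38). Sox5, an SRY-box transcription factor, showed the largest fall here, from 4.30, 4.26 and 4.70 FPKM to 0.148, 0.120 and 0.169. Its mean was 30.3-fold lower, with a log2 fold change of -4.21 ± 0.15 (adjusted p = 6.5e-07, limma). The RNA-binding protein gene Rbms3 fell from 3.59, 3.04 and 3.12 to 0.420, 0.220 and 0.117 FPKM. Zbtb20, a zinc finger repressor, fell by less, from 13.1, 12.1 and 11.6 to 6.06, 6.01 and 6.39 FPKM (log2 fold change -0.98 ± 0.08).

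The forkhead gene Foxp1 fell by 1.29 on the log2 scale, while its paralogue Foxp2 had 2.38, 2.40 and 2.56 FPKM untreated and 1.54, 2.22 and 1.92 treated (log2 fold change -0.37 ± 0.15, adjusted p = 0.06, limma). Auts2, a Polycomb-associated protein gene, was at 1.63, 1.62 and 1.43 FPKM untreated and 1.79, 1.86 and 2.00 treated (log2 fold change 0.26 ± 0.13, adjusted p = 0.11, limma). For both genes the groups did not overlap although the test made no call. In limma-voom on recovered reads, Auts2 was called higher, with a log2 fold change of 0.27.

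All 6 members of the matrix and glycan group fell, with a median of -2.28. Thsd7b, a thrombospondin type 1 repeat protein, had a log2 fold change of -4.35 ± 0.27, the lowest of any member at the pseudocount of 0.1, with 3.69, 3.14 and 3.52 FPKM untreated and 0.170, 0.0321 and 0.0476 treated. Only 34, 7 and 10 reads remained in the treated libraries. At a pseudocount of 0.5 or 1 its log2 fold change came to -2.77 or -2.04, and limma-voom on recovered reads gave -5.72. The order among members also changed, with Sox5 (-2.93) below it at a pseudocount of 0.5 and Ctnna2 (-2.66) below it at 1. Atrnl1, an attractin-like membrane protein, was among the more abundant members, at 14.3, 13.7 and 14.0 FPKM untreated and 3.74, 2.37 and 2.89 treated. The heparan sulphate proteoglycan Gpc6 fell from 5.51, 4.74 and 5.11 to 2.30, 1.11 and 1.37 FPKM.

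Enzymes of metabolism and protein turnover gave 10 members, of which 8 fell, none rose and Macrod2 and Fars2 were not called (median -1.08). Fhit, a dinucleoside triphosphate hydrolase at a well-known fragile site, fell from 1.40, 0.922 and 0.992 FPKM to 0.122, 0.150 and 0.349. Wwox, an oxidoreductase at another such site, fell from 1.81, 1.83 and 1.77 to 1.17, 0.872 and 0.882 FPKM (log2 fold change -0.84 ± 0.15). Dpyd, which degrades pyrimidines and the drug fluorouracil, fell by 1.38. Fars2, a mitochondrial phenylalanine tRNA synthetase, had 3.76, 3.34 and 3.63 FPKM untreated and 3.51, 2.92 and 2.65 treated, and the groups overlapped. Macrod2, an ADP-ribose hydrolase gene of 1998 kb, was at 0.172, 0.239 and 0.201 FPKM untreated and 0.0589, 0.108 and 0.191 treated. It was called lower without cyclophosphamide replicate 3 (-0.73) and in limma-voom (-0.89).

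Naaladl2 and Lrmda, which were put in no role group, both fell, by 2.51 and 1.76 on the log2 scale. Lrmda was uneven, with 1.15, 0.570 and 0.894 FPKM untreated and 0.358, 0.0617 and 0.192 treated.

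**Figure D2:**
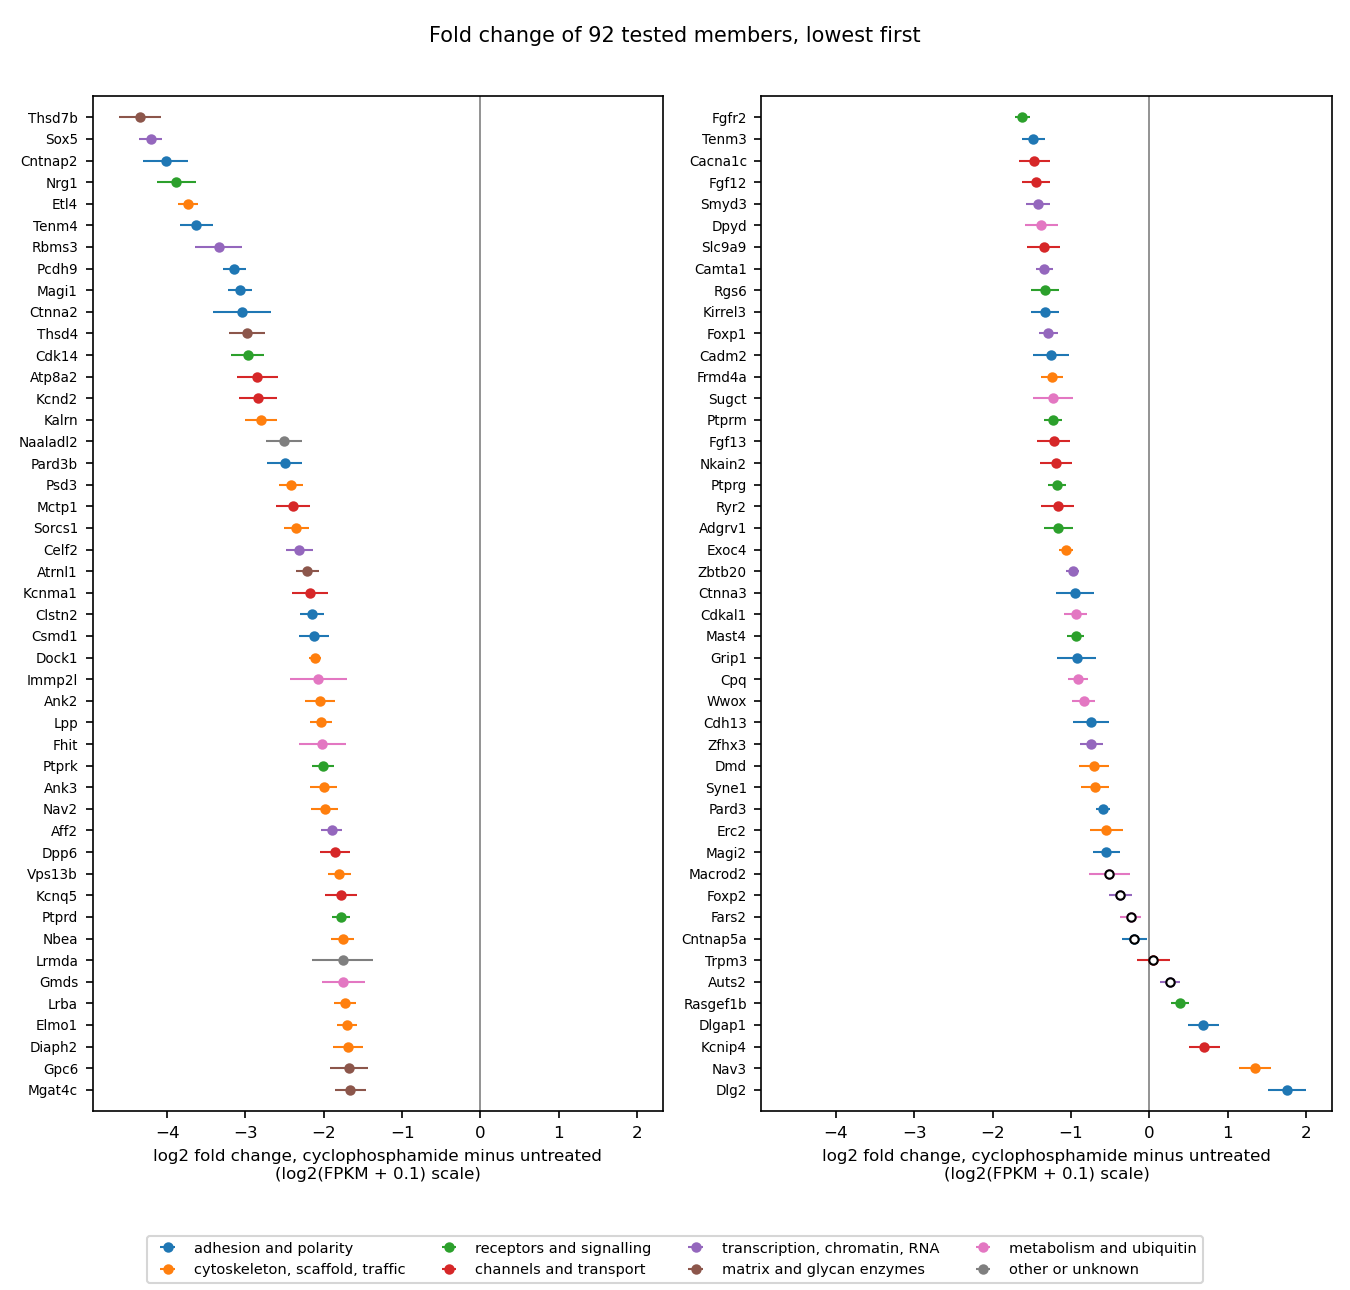
Log2 fold change of 92 of the 94 tested members on the log2(FPKM + 0.1) scale, cyclophosphamide minus untreated, with bars of 1 standard error, coloured by role group, lowest at the upper left; open circles are the 6 members not called. Values run from -4.35 for Thsd7b to 1.76 for Dlg2, and the 5 members that rose come from 4 role groups.

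The 5 members that rose, except Rasgef1b, were low in untreated cells. Dlg2, a postsynaptic scaffold of the MAGUK family that spans 1973 kb, went from 0.0864, 0.106 and 0.174 FPKM to 0.489, 0.843 and 0.644 (log2 fold change 1.76 ± 0.24, adjusted p = 0.00033, limma). Its reads went from 23, 30 and 48 to 131, 246 and 181. Nav3, a microtubule-associated neuron navigator, went from 0.0925, 0.0339 and 0.0622 to 0.304, 0.316 and 0.316 FPKM (log2 fold change 1.35 ± 0.20), while its paralogue Nav2 fell by 1.99.

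Dlgap1, a scaffold that binds Dlg proteins, was at 0.0513, 0.109 and 0.0595 FPKM untreated and 0.166, 0.168 and 0.197 treated. Its log2 fold change was 0.69 ± 0.20 (adjusted p = 0.016, limma), and its call was lost without untreated replicate 1 (0.60) or cyclophosphamide replicate 3 (0.64). Nav3 and Dlgap1 met the level limit only through the treated group, so the direction of both is a description. Untreated reads were few for these genes, and with a pseudocount of 1 the log2 fold changes of Dlg2, Nav3 and Dlgap1 were 0.56, 0.30 and 0.13. In limma-voom on recovered reads they were 2.45, 2.40 and 1.32.

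Rasgef1b, a guanine nucleotide exchange factor for Ras-like GTPases, had 5.72, 5.66 and 5.16 FPKM untreated and 8.63, 6.24 and 7.05 treated. The log2 fold change was 0.39 ± 0.12 (adjusted p = 0.024, limma), and the call was lost without untreated replicate 3 (0.34), without cyclophosphamide replicate 3 (0.41) and with upper-quartile scaling (0.28). Its table span of 512 kb is also an annotation matter, since its principal transcript and its RefSeq gene both span 35.5 kb.

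Span in the table and the length that is transcribed need not be equal, so the members were matched to GENCODE release M21, whose coordinates equal those of the table for 93 of the 95 members, and to RefSeq genes on GRCm38.p6. By RefSeq, 89 of 94 matched members span at least 500 kb. By the principal coding transcript, 71 do, and of these 65 fell, 2 rose and 4 were not called, with a median of -1.67. Of 21 members with a principal transcript of 100 to 500 kb, 17 fell and 2 rose, with a median of -1.99. Fgf13 (-1.22), Rasgef1b (0.39) and Schip1 were the 3 with one under 100 kb.

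Exons were a median of 1.43% of a member's span and the longest intron had a median of 231 kb. In 11 members, more than 5% of exon bases are shared with another gene, so that the counting could split their reads. Among them are Sox5 (9.25%), Fars2 (10.7%), Kcnip4 (7.36%) and Atp8a2 (15.6%).

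The start sites of the members were examined next. RefSeq start sites with their sequence were given for 76 of the 95 members, and the outermost start with a window lay within 1 kb of the table's start for 56. For 12 members it lay over 100 kb inside the span, among them Rasgef1b (476 kb), Dlg2 (614 kb) and Sox5 (835 kb). The RefSeq genes of Dlg2 and Sox5 span 1973 and 954 kb, so the windows do not cover every start of these genes. The 250 bases before the start follow for a pair of members that fell, Tenm4 and Rbms3, and a pair that rose, Dlgap1 and Rasgef1b. They were chosen after their values were seen, among windows that hold no annotated exon, and CG dinucleotides are in capitals. They lie at chr7:96170994-96171243 (Tenm4, plus strand), chr9:117629914-117630163 (Rbms3, minus strand), chr17:69968823-69969072 (Dlgap1, plus strand) and chr5:99252928-99253177 (Rasgef1b, minus strand) of GRCm38.p6.
Tenm4: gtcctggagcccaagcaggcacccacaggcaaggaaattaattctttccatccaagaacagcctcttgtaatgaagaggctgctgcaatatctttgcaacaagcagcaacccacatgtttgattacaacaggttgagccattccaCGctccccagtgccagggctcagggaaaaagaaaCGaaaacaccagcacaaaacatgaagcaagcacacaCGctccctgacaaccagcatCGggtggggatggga
Rbms3: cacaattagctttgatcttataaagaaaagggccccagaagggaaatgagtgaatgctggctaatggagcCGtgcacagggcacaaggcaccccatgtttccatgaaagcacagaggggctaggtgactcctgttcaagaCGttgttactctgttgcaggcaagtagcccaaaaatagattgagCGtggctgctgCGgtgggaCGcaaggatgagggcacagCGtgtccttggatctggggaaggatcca
Dlgap1: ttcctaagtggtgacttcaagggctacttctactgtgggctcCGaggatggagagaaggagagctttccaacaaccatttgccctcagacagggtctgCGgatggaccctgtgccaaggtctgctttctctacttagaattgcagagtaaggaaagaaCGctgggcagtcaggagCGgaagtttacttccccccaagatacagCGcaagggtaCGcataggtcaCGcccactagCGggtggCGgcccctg
Rasgef1b: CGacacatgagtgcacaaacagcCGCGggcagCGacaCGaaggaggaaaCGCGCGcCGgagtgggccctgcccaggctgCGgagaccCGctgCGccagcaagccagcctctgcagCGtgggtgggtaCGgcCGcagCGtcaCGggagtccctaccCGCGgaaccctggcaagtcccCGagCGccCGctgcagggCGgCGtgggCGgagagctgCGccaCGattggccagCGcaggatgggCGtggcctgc

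The windows of Tenm4, Rbms3 and Dlgap1 hold 4, 6 and 9 CG dinucleotides, at a GC content of 50.8%, 52.0% and 55.2%. That of Rasgef1b holds 29 at 72.4%, and its start is the one of the 35.5 kb RefSeq gene. Over the 75 tested members with a window, the median GC content was 61.6%, ranging from 26.8% to 81.6%. The median was 60.4% over 10022 tested protein-coding genes. The observed over expected CG ratio had a median of 0.66 in tested members and 0.73 in those genes. The members that fell covered that whole range of GC content.

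The short motifs below were searched on both strands of the whole 300 base windows, which add 50 bases after the start. The AP-1 motif TGANTCA was in 8.0% of the windows of tested members and 4.59% of those of tested protein-coding genes. The cyclic AMP response element TGACGTCA was in 2.67% and 3.32%, and the core TGACNNNGC of the antioxidant response element in 9.33% and 14.8%. TGATGNAA, a core of the element bound by ATF4 with C/EBP proteins, was in 2.67% and 2.15%. A run of bases can match both the AP-1 motif and the antioxidant core. These shares rest on 6, 2, 7 and 2 member windows, and a match is not a site of binding.

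Over all tested protein-coding genes, the fold change ran with span from about 100 kb upward. The median log2 fold change was -0.04, 0.05 and 0.01 for spans under 10 kb, of 10 to 30 kb and of 30 to 100 kb. It was -0.42 for the 1333 genes of 100 to 250 kb, -1.13 for the 349 genes of 250 to 500 kb and -1.46 for the 116 genes of 500 kb or more. At a pseudocount of 1 these last medians came to -0.26, -0.57 and -0.69. The same classes gave -0.46, -1.42 and -2.03 when recovered reads were fitted by limma-voom. The share called lower was 34.6%, 33.1% and 35.4% in the 3 shorter classes, then 55.9%, 78.8% and 86.2%. The tested members all lie in the longest class of that gradient. The classes are too wide to show whether there is a step at 500 kb.

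The gradient was present among genes of short and of long spliced length. Among genes whose exons add up to less than the median of 4508 bases, the median log2 fold change was -0.68 at 100 to 250 kb and -0.81 at 250 to 500 kb (30 genes). Among those at or above it, the values were -0.39 and -1.15. Across protein-coding genes of 100 kb or more the rank correlation of fold change with span was -0.36 (n = 1798 genes), and across all tested it was -0.14 (n = 12765). These are correlations across genes of the same 6 libraries, and genes are not independent replicates.

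**Figure D3:**
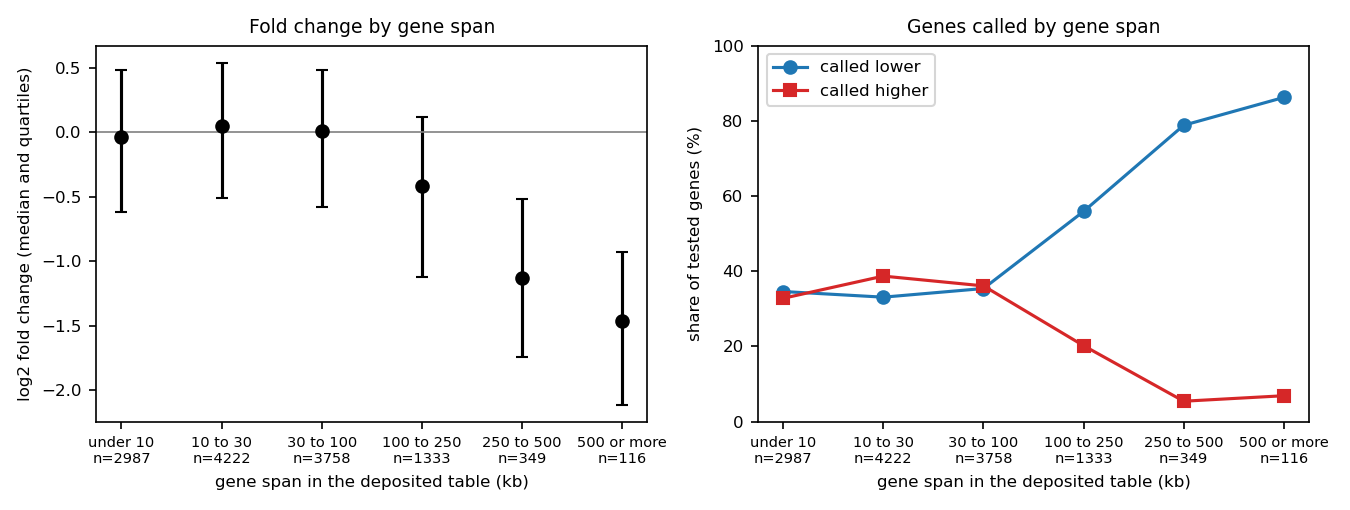
Left, median log2 fold change with lower and upper quartile for tested protein-coding genes in 6 classes of span in the deposited table. Right, share of each class called lower (blue) or higher (red), which is 86.2% and 6.9% in the longest class against 34.6% and 32.8% in the shortest.

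Within the members, longer did not mean lower. The rank correlation of fold change with span was 0.05 (n = 94), with the span of the principal transcript 0.06, with spliced length 0.02 and with the longest intron 0.00. Members of 500 to 600 kb had a median of -1.73, those of 600 to 1000 kb one of -1.47 and those of 1000 kb or more one of -1.65. The 6 longest were Fgfr2 (-1.62), Ptprd (-1.78), Dmd (-0.71), Cntnap2 (-4.02), Macrod2 (-0.51) and Dlg2 (1.76), which cover nearly the whole range.

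The fold change ran with the level in untreated cells, with a rank correlation of -0.39 (n = 94). That value depends on the scale, since it was -0.78 with a pseudocount of 1 and -0.10 in limma-voom on recovered reads. The untreated level is also part of the fold change.

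**Figure D4:**
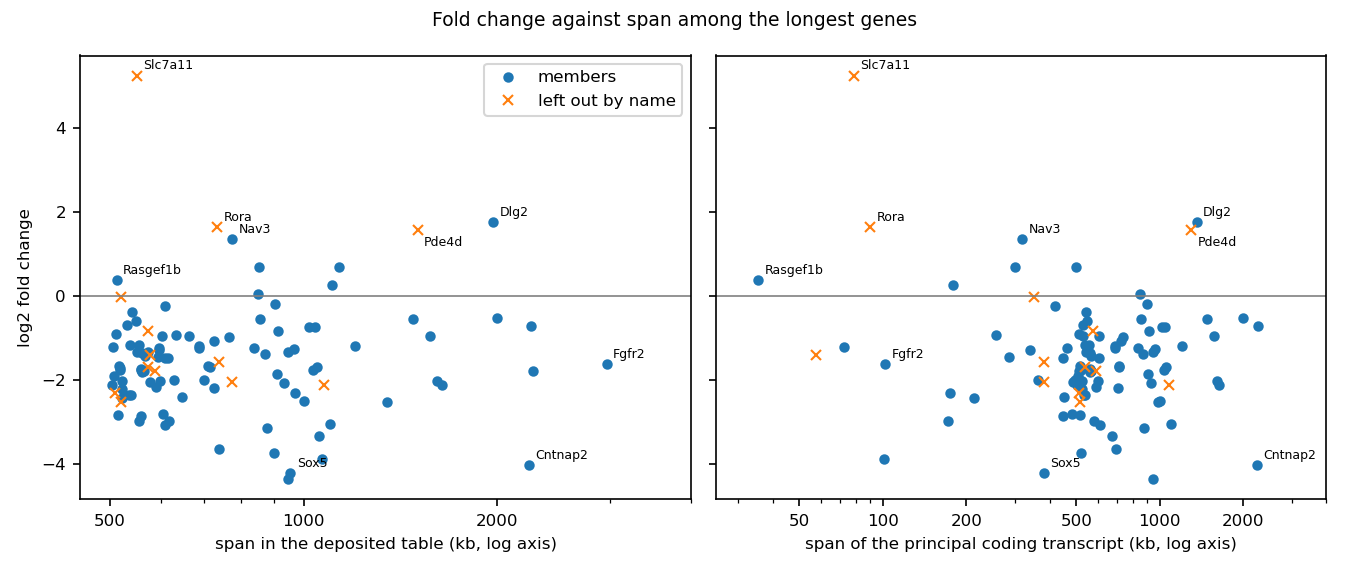
Log2 fold change of the 94 tested members (blue) and of the 13 genes left out by name (orange crosses) against span in the deposited table (left) and span of the principal coding transcript (right), both on log axes. Rank correlations of fold change with the 2 spans were 0.05 and 0.06, from Fgfr2 at 2961 kb in the table to Rasgef1b at 35.5 kb by its principal transcript.

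Just inside the span limit lay Dock1 (503 kb), Fgf13 (506 kb) and Aff2 (508 kb), with log2 fold changes of -2.11, -1.22 and -1.90. Just outside lay Cacna1e (494 kb), Gabrb1 (491 kb) and Prkce (490 kb), with -1.60, -1.41 and -1.19. Just inside the level limit were Schip1, Mgat4c and Dlgap1, at mean levels of 0.105, 0.124 and 0.125 FPKM. Just outside were St6galnac3, Nckap5 and Dgkb, at 0.0837, 0.0743 and 0.0739 FPKM, with log2 fold changes of -1.24, -1.01 and -1.27.

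The names left out by the rule include genes that rose. Of these 13 genes 9 fell, 3 rose and Pde4b was not called, with a median of -1.57. The cystine importer gene Slc7a11 went from 1.20, 1.20 and 1.29 FPKM to 44.7, 54.8 and 52.9, and the nuclear receptor gene Rora from 1.78, 1.69 and 1.77 to 6.24, 4.62 and 6.32. Their principal transcripts span 78.7 and 90.1 kb of a table span of 551 and 734 kb. Pde4d, a cyclic AMP phosphodiesterase, rose by 1.58 with a principal transcript of 1297 kb.

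Genes that lie within a member's span are a measure the rule did not use. The members hold 620 other annotated genes, 23 of them protein-coding and tested, of which 6 fell, 12 rose and 5 were not called (median 0.19). Among all tested protein-coding genes 38.3% fell and 33.4% rose. Of these 23 genes, 19 lie in the long model of Fgfr2, and 4 of the 19 fell and 11 rose. The RefSeq gene of Fgfr2 spans 104 kb, so those 19 lie in the table span and need not lie in a transcribed long gene. The other 4 were Fam196a (1.80), inside Dock1, Vamp3 (0.06) and Per3 (-1.06), inside Camta1, and Flrt3 (-1.66), inside Macrod2. Vamp3, a vesicle SNARE of 10.7 kb, had 31.0, 29.2 and 31.7 FPKM untreated and 33.5, 30.6 and 31.8 treated, where its host Camta1 fell from 5.41, 5.67 and 5.66 to 1.93, 2.38 and 2.13.

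The nearest tested protein-coding genes on either side of members, taken among genes that themselves span under 100 kb, numbered 185. Their median distance from the member was 405 kb, so many are not close neighbours. Of these genes 77 fell, 66 rose and 42 were not called, with a median of -0.09. Among tested protein-coding genes of under 10 kb, 10 to 30 kb and 30 to 100 kb, 34.6%, 33.1% and 35.4% fell. In the same classes 32.8%, 38.7% and 36.1% rose, with medians of -0.04, 0.05 and 0.01. Among all tested protein-coding genes, long ones included, 38.3% fell and 33.4% rose, with a median of -0.06. A difference between the neighbours and these genes was not tested.

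Of 15 tested members that are mouse orthologues of genes at human common fragile sites, 12 fell, Dlg2 rose and Macrod2 and Auts2 were not called, with a median of -1.06. The other 79 tested members had 71 that fell and 4 that rose, with a median of -1.68. The list was drawn up from general knowledge, and a difference between these groups was not tested.

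Genes that act on elongation were read from a list of factors of RNA polymerase II elongation and pause release. Of 38 tested, 25 rose (65.8%), 7 fell (18.4%) and 6 were not called, with a median of 0.34. Among all genes tested, 33.1% rose and 35.8% fell. Ell, an elongation factor of the super elongation complex, went from 9.49, 10.9 and 9.50 FPKM to 28.9, 23.3 and 27.2, and its partner Eaf1 from 26.8, 28.2 and 28.4 to 90.1, 92.3 and 93.4. The chromatin remodeller gene Chd2 rose by 1.62. Cdk12 and its cyclin Ccnk, which support transcription of long genes, rose by 1.04 and 0.99. Mllt3, the list's longest gene at 263 kb, fell by 2.35.

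Topoisomerases relieve the strain that builds up ahead of the polymerase. Top1 was at 16.1, 15.3 and 16.8 FPKM untreated and 17.1, 15.1 and 16.1 treated, with a log2 fold change of 0.00 ± 0.07. Of the 7 genes tested 3 rose (42.9%), namely Tdp2 (0.32), Top3a (0.40) and Top3b (0.50), and 2 fell (28.6%). Top2b fell by 0.22 and Top2a, the isoform of dividing cells, by 1.51. Of 8 tested genes of transcription-coupled repair 5 rose (62.5%) and 1 fell (12.5%), with a median of 0.44. Of 20 tested genes of U1 snRNP and 3 prime end processing 11 rose (55.0%) and none fell (median 0.27). These are RNA levels of the factors, and their part in the levels of the members was not tested.

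Many members are known from neurons, so neuron markers were read beside them. Tubb3, Map2 and Rbfox3, the 3 tested of 5, all fell, and the summed level of the list went from between 36.6 and 42.2 FPKM to between 1.98 and 5.77. Tubb3 gave most of that sum, at 34.3, 35.7 and 40.3 FPKM untreated and 5.36, 1.73 and 3.07 treated. It spans 10.6 kb. Map2 and Rbfox3 are themselves long, at 267 and 422 kb, in the span class where 78.8% of genes fell. Snap25 was at or below 0.131 FPKM and Syt1 at or below 0.022 FPKM in every library. The part of such cells in the levels of the members was not tested.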

How the data were processed

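Polyadenylated RNA was measured in 6 libraries, 3 untreated and 3 cyclophosphamide, grouped by their labels. The submitters' processing notes name CASAVA, HISAT2 version 2.0.5 and GRCm39, with the counting tool and its strand mode not given in the sources used here. The deposited table is named as counts, but the authors deposited FPKM values in it, since multiplied by gene length they are whole multiples of 1 read within a tolerance of 0.01 for 100% of values. Its coordinates equal those of GENCODE M21 (GRCm38) for 98.3% of 54409 shared gene IDs and are read as GRCm38.

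Genes with 10 recovered reads in at least 3 libraries and 15 in all were tested by limma 3.58.1 (R 4.3.3) on log2(FPKM + 0.1), using moderated variances that follow the mean, two-sided, Benjamini-Hochberg adjusted over 14885 genes, called at an adjusted p under 0.05. The script was tested on simulated data. The values of 2 members are not reported here, and counts and medians include them. Fold changes on this scale understate the change of low genes. Replicate numbers gave no sign of pairing, and the main fit used none.

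The members, role groups, fragile site list, factor lists and markers were chosen with earlier results of these data known; role groups were assigned from gene names. Named genes were the 10 largest falls and rises, the 6 longest, the 6 most abundant, the fragile site list, the 3 smallest p-values per role group and direction, and the genes nearest each limit. Paralogues, other members printed with 1 value, and list, nested, left-out and marker genes were chosen after their values were seen. Spans of principal transcripts come from GENCODE M21, promoter windows and RefSeq gene spans from RefSeq on GRCm38.p6.

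Alternatives were other pseudocounts, filters and scalings, limma-voom, a replicate block, leaving out each library, other span and level limits and, added after seeing the data, the principal transcript's span and shared exon bases.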

Additional observations from a re-analysis of the deposited data

How the results depend on the processing

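The median log2 fold change of tested members was -1.67. It was -1.09 with a pseudocount of 0.5, -0.78 with a pseudocount of 1, -1.98 in limma-voom on recovered reads and -1.42 for spans of 400 kb or more, and -1.71 to -1.55 when 1 library was left out. The share of members that rose (5.32%) was 2.11% with no filter, 9.09% for spans of 1000 kb or more, 1.47% and 2.04% at a mean of 0.5 and of 1 FPKM or more, and 2.82% for principal transcripts of 500 kb or more (chosen after seeing the data). It was 3.19% to 5.32% when 1 library was left out, and the share that fell then ran from 85.1% to 88.3%. Upper-quartile scaling moved the median of all genes from -0.02 to -0.13.

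With the replicate number as a block, 87.2% of tested members fell and 5.32% rose. Same-numbered libraries did not deviate together (correlations of -0.0796, 0.00463 and -0.0327). No sign of pairing was seen, which cannot exclude that the libraries were paired. Of 628 values of 42 named members under the alternatives, 612 kept their direction and side of the threshold, 13 lost the call, 3 gained it and 0 changed sign. With no filter 78 members fell and 2 rose, and 5 of the named members lost their call, namely Dlgap1, Dmd, Kcnip4, Magi2 and Rasgef1b. Low reads limit the fold changes of the lowest members.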
